A study of Mus musculus with 20 samples.

Results

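The comparison sets cardiomyocytes (CMs) of wild-type (WT) mice against cardiac fibroblasts (FBs) of WT mice, both taken after transverse aortic constriction (TAC), an operation that narrows the aorta and overloads the left ventricle. Its members were chosen by the labels alone and are 6 of the 20 samples of the series, WT-CM1, WT-CM2, WT-CM6, WT-260-FB, WT-277-FB and WT-283-FB. The series measured polyadenylated RNA of isolated heart cells by bulk RNA sequencing in WT and *Gadlor*-KO mice, the latter lacking the segment that gives rise to the long noncoding RNAs *Gadlor1* and *Gadlor2*. All samples were taken 2 weeks after TAC, and surgery was done in adult mice. The WT mice carried no introduced allele according to the labels, and the labels give neither the strain, the sex nor whether each sample was 1 animal. CMs came from hearts digested through the aorta with Liberase and trypsin and were collected by sedimentation. FBs came from minced hearts digested with collagenase, from the cells that CD146 beads left behind and that were then collected with feeder removal beads. No sham-operated CMs or FBs were analysed here, so the values describe 2 cell types of the overloaded heart and not an effect of TAC.

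CMs are the contracting cells of the heart. They fill most of their volume with sarcomeres and mitochondria, they couple electrical excitation to contraction through calcium, and they burn mainly fatty acids. FBs are cells of the stroma that lay down and remodel the collagenous matrix between the myocytes, and after pressure overload they produce more of it.

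The CM and FB tables give log2 CPM (counts per 1000000 counted reads) per transcript and were joined by transcript, which left 12212 genes after removal of the mitochondrially encoded ones. Each sample was brought to the same total over these genes, and all levels below are log2 CPM after this rescaling. A difference is the mean of the 3 CM samples minus the mean of the 3 FB samples on the log2 scale, so it is positive where CMs were higher. A gene was called where the 3 CM and the 3 FB values did not overlap and the means differed by at least 4-fold, and the higher group averaged 1 CPM or more, which held for 12211 genes. No p-value is given, because the tables had been normalized and filtered separately, and 3 samples against 3 cannot go below an exact two-sided permutation p of 0.1. Cell type, isolation method and table coincide, so that their parts in a difference cannot be told apart.

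Each WT sample expressed the defining genes of its label (plot of marker levels by library). The 12 CM markers summed to between 99110 and 106700 CPM in the CM samples, and to 1702, 49.7 and 107.5 CPM in WT-260-FB, WT-277-FB and WT-283-FB. The 12 FB markers summed to between 41760 and 69280 CPM in FBs and to between 360.3 and 617.8 CPM in CMs, so each group held a small amount of the markers of the other. Macrophage markers came with the FBs, where 11 of 12 were called higher and the summed level was 2650 to 5055 CPM against 772.4 to 1347 CPM in CMs. In CMs most of that sum was *Cx3cr1*, the fractalkine receptor gene, with levels of 9.53, 9.68 and 10.31 in CMs and 8.30, 9.22 and 8.55 in FBs. Endothelial markers summed to 658.1, 1368 and 658 CPM in CMs and to 2649, 423.6 and 847.8 CPM in FBs, and 1 of 12 was called. Markers of red blood cells summed to 5112 CPM in WT-260-FB and to 755.3 CPM or less in the other 5 samples. Epicardial and mesothelial markers, all 7 called higher in FBs, summed to between 169.7 and 753.7 CPM there and to at most 40.8 CPM in CMs. In bulk RNA, a larger number of cells of one type and more RNA per cell cannot be told apart.

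**Figure D1:**
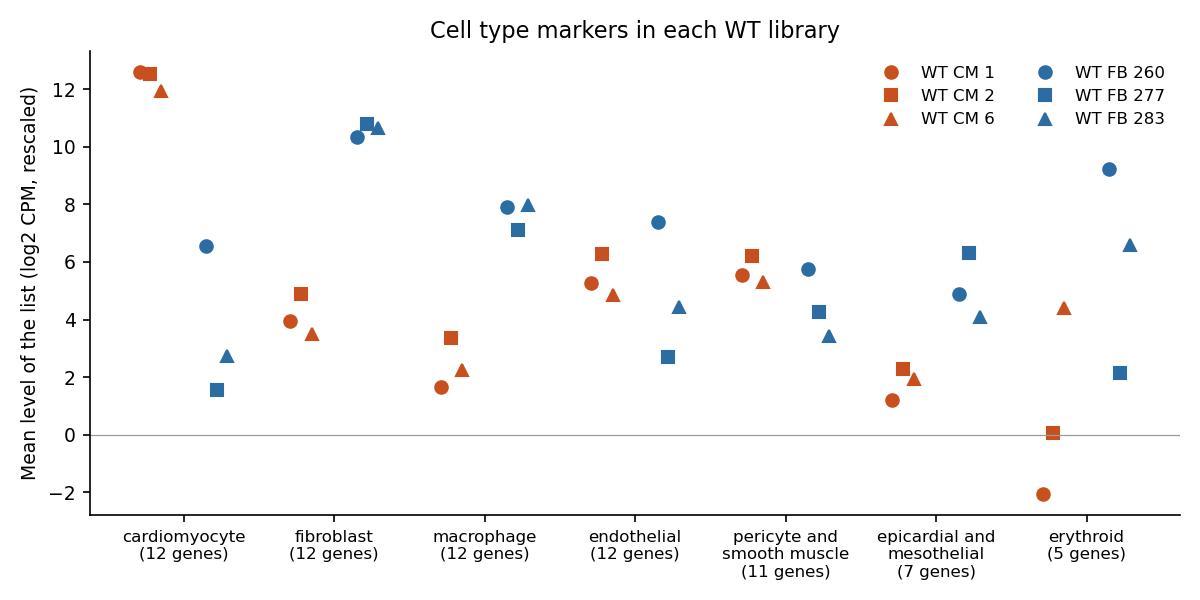
Mean level (log2 CPM, rescaled) of 7 lists of cell type markers, with the number of measured genes under each name, in the 3 WT CM samples (orange) and the 3 WT FB samples (blue). The CM list lies between 11.94 and 12.60 in CMs, and WT-260-FB lies above the other FB samples for CM, endothelial, pericyte and red blood cell markers.

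The libraries WT-CM6 and WT-260-FB stood apart. WT-CM6 correlated with the other CM samples at an r of 0.808 and 0.813 across genes, against 0.975 between those, and in the fifth of genes with the longest transcripts it lay 1.56 log2 units under them. WT-260-FB held 74.1% of its joined CPM in mitochondrially encoded genes before these were removed, against 3.90% and 5.83% in WT-277-FB and WT-283-FB, and it carried the most CM transcripts of the FBs. In CMs the mitochondrial share was 27.5% to 47.6%. Library sizes, estimated from the step between low values, were, in units of 1000000 reads, 17.0 to 20.2 in CMs and 15.0, 59.9 and 56.5 in FBs. The difference also moved with transcript length, from a median of 0.35 in the fifth with the shortest transcripts to -1.21 in that with the longest, and without WT-CM6 from 0.41 to -0.52. *Ryr2*, the long gene of the calcium release channel, was at 11.17, 10.87 and 7.73 in WT-CM1, WT-CM2 and WT-CM6, and its difference of 8.88 was 9.98 without WT-CM6.

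Of the 12211 genes, 1059 (8.67%) were called higher in CMs and 2643 (21.6%) higher in FBs, and 62.0% did not overlap at any fold. The median difference of all genes was -0.59, and differences of single genes and lists are to be read against that shift. The 64-fold mark was passed by 107 of the genes called higher in CMs and by 209 of those called higher in FBs. CMs thus had 28.6% of the calls, a share that was 44.5% when samples were centred on their median instead, 36.0% without WT-CM6 and 41.5% without both WT-CM6 and WT-260-FB, an alternative chosen after seeing the data. The balance between both directions therefore depended on the scaling and on these libraries.

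**Figure D2:**
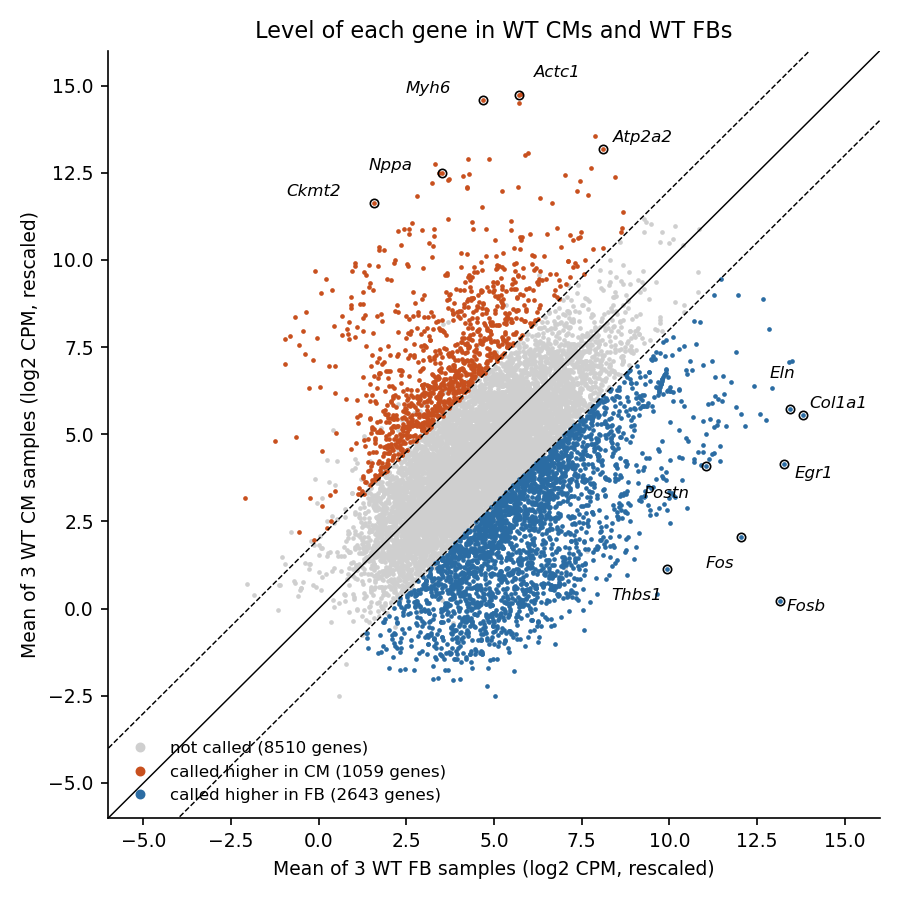
Mean level of each gene in 3 WT FB samples (x axis) and 3 WT CM samples (y axis), both in log2 CPM after rescaling. The solid line marks equality and dashed lines 4-fold. Called genes are orange (1059 higher in CMs) or blue (2643 higher in FBs), and *Fosb* lies farthest from the line of equality.

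The genes of the contractile apparatus made up the far end of the CM side. In the thick filament and M-band list 11 of 12 measured members were called higher in CMs, with a median difference of 8.35 (8.52 without WT-CM6, 9.63 without WT-260-FB). In the thin filament list it was 9 of 9, with a median of 8.04. *Myh6*, the fast alpha-myosin heavy chain of the adult mouse heart, had levels of 14.89, 14.57 and 14.30 in WT-CM1, WT-CM2 and WT-CM6 and of 7.31, 2.70 and 4.05 in WT-260-FB, WT-277-FB and WT-283-FB. The gene lies on chr14:54941921-54966927 (minus strand, GENCODE, mm10). Its difference was 9.90, or 955-fold (11.21 on the log2 scale without WT-260-FB), and the lowest CM sample was 6.99 log2 units above the highest FB sample. *Myl3*, the ventricular essential light chain, had levels of 12.65, 12.41 and 13.23 in CMs and of 6.64, 0.52 and 2.78 in FBs. As for every sarcomere gene named here, the highest FB value was that of WT-260-FB, and without this sample the difference of *Myl3* was 11.11 instead of 9.45. *Actc1*, cardiac alpha-actin, was at 14.46, 14.60 and 15.15 in CMs and 8.92, 3.68 and 4.57 in FBs, a difference of 9.01. *Acta1*, the skeletal alpha-actin that the loaded heart takes up again, was more spread among CMs, at 11.13, 12.73 and 13.39, and lay at 7.0, 1.82 and 3.54 in FBs. *Mybpc3*, which ties myosin to the thick filament backbone, differed by 9.06, *Tnnt2* and *Tnni3*, the troponins that anchor and inhibit the thin filament, by 8.04 and 8.16, and *Tpm1*, a tropomyosin that FBs express too, by 5.66. *Myl4*, the atrial light chain, was the member of the thick filament list that was not called, with 3.03 ± 0.04 in CMs and 3.09 ± 2.01 in FBs (mean ± SD, n = 3). *Myh7*, the slow beta-myosin heavy chain, is closely similar to *Myh6* in sequence, and how reads shared by both were counted is not given in the sources used here.

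The promoters of members of these lists are shown because several carry a CArG box, the element that serum response factor binds in muscle and immediate early genes. The windows are those of RefSeq on GRCm38.p6, from 250 bases before to 50 bases after the gene start, at chr2:114052826-114053125 (minus strand) for *Actc1*, chr8:123894726-123895025 (minus strand) for *Acta1*, chr9:110763428-110763727 (plus strand) for *Myl3* and chr7:28379179-28379478 (minus strand) for *Zfp36*, an immediate early gene of the FB side. Capitals mark the CArG box and, in both actins, a match to the letters of the TATA box (TATAAA), searched on both strands. The TATAAA match lies after the gene start of the window in *Actc1* and shortly before it in *Acta1*.
Actc1: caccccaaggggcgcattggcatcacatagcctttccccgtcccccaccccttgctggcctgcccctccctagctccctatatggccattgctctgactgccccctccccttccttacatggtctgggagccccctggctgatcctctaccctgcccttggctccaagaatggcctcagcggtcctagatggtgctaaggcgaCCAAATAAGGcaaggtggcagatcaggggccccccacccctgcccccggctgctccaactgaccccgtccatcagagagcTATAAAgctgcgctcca
Acta1: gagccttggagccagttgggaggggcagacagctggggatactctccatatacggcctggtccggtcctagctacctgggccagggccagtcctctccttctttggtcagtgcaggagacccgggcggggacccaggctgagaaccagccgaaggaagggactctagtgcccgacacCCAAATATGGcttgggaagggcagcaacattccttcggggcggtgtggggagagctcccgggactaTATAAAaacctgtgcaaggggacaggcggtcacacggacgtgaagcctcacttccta
Myl3: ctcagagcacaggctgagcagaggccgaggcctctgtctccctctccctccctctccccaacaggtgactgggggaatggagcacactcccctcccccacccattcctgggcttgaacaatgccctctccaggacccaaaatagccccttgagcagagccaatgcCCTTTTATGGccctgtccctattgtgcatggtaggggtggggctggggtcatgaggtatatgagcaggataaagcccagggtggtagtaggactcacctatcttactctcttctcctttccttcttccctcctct
Zfp36: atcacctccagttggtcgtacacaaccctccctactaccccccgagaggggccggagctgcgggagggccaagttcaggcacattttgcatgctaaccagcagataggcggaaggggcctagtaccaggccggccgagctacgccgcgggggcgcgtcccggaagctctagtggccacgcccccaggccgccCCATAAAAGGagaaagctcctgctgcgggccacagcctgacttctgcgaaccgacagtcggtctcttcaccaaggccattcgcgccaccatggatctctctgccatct
The CArG box began at position -47 in *Actc1*, -73 in *Acta1*, -85 in *Myl3* and -58 in *Zfp36*, counted with 0 at the first base of the gene. It was found in 3 of 9 thin filament genes (33.3%), 2 of 10 thick filament genes with a window (20.0%), 2 of 13 Z-disc genes (15.4%) and 2 of 23 immediate early genes (8.70%). On the FB side the non-muscle and smooth contractile cytoskeleton held it in 4 of 24 genes (16.7%) and the collagens in 0 of 19. The integrins and laminins, a list set to neither side, held it in 8.33%. The share was 1.58% of the 9328 compared genes with a window and 1.81% of all 27025 genes with one. Genes called higher in CMs had it in 2.06% and genes called higher in FBs in 1.61%. Other motifs were searched too. MCAT (CATTCC) stood in 66.7% of thin filament, 40% of thick filament and 15.4% of Z-disc genes, against 14.7% of compared genes. A MEF2 site stood in 30.8% of Z-disc genes and in 0 thin filament genes, against 2.15% of compared genes. These are matches of letters within a window and not sites shown to be bound.

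The Z-disc, where thin filaments are anchored, followed the sarcomere, with 16 of 17 members called higher in CMs and a median of 6.72. *Actn2*, the alpha-actinin that cross-links actin there, was at 11.59, 11.63 and 12.29 in CMs and 5.86, 0.67 and 1.85 in FBs. *Des*, the intermediate filament desmin, differed by 7.12, *Ldb3*, a scaffold of the Z-disc, by 7.49 and *Csrp3*, a LIM protein, by 8.57. Smaller differences belonged to genes that FBs express as well, such as *Fhl2* with 5.64 and *Cryab*, a small heat shock protein of the Z-disc, with 4.61. *Bag3*, a co-chaperone, was the member that was not called, with 9.66 ± 0.35 in CMs and 8.86 ± 0.49 in FBs.

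Calcium handling was split by role. Of 19 measured members 13 were called higher in CMs and 1 in FBs, with a median of 3.81. The proteins of the sarcoplasmic reticulum had the largest differences, 9.79 for *Hrc*, a calcium-binding protein of its lumen, 8.66 for *Casq2*, the calcium store calsequestrin, and 8.47 for *Srl*, a further luminal protein. *Atp2a2*, the SERCA pump that refills the store, was at 13.81, 13.22 and 12.54 in CMs and already at 8.02, 8.33 and 7.94 in FBs, a difference of 5.09. *Pln*, the inhibitor of that pump, was at 13.12, 12.72 and 10.37 in CMs and 7.41, 2.18 and 3.08 in FBs, so that WT-CM6 was the lowest CM sample for both. The difference of *Pln* was 7.85, and 8.70 without WT-CM6. *Itpr1*, the inositol trisphosphate receptor that releases calcium in many cell types, went the other way, with 4.90, 4.95 and 2.33 in CMs and 6.68, 6.91 and 6.99 in FBs. Its difference of -2.80 was -1.94 without WT-CM6, under the 4-fold threshold.

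Among ion channels and pumps 11 of 15 were called higher in CMs and none in FBs, with a median of 3.05. The 2-pore potassium channel gene *Kcnk3* was at 9.18, 8.88 and 9.33 in CMs and 4.28, -0.38 and 0.77 in FBs, a difference of 7.57. *Fxyd1*, a small membrane protein that regulates ion transport, differed by 2.03 and lost its call without WT-CM6, at 1.81, and without WT-277-FB, at 1.77. The intercalated disc, which joins myocytes end to end, had 6 of 18 members called higher in CMs and a median of 1.21 (1.95 without WT-CM6). These 6 included *Lrrc10* with 8.89, *Nrap* with 8.08 and the desmosomal *Dsp*, whose levels of 10.93, 10.71 and 7.09 in CMs again set WT-CM6 apart (difference 5.93, and 7.17 without it). Junction genes that many cells use did not separate, as for plakoglobin (*Jup*), at 8.31, 8.38 and 8.66 in CMs and 8.97, 7.67 and 8.86 in FBs.

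Natriuretic peptides, the hormones that the loaded myocyte secretes, were on the CM side and their receptor on the FB side. *Nppa* was at 11.37, 12.21 and 13.90 in CMs and 6.17, 2.12 and 2.24 in FBs, and *Nppb* at 8.49, 9.07 and 9.84 in CMs and 3.78, -1.87 and -0.77 in FBs. *Corin*, the protease that activates the prohormone, differed by 8.13 (8.84 without WT-CM6). *Npr1*, the receptor of both peptides, was at 3.81, 4.76 and 3.86 in CMs and 7.35, 6.97 and 6.38 in FBs, a difference of -2.75. *Ace*, the angiotensin-converting enzyme, was at 10.88, 10.89 and 11.08 in FBs and 4.67, 5.90 and 5.55 in CMs. The list as a whole had 4 of 11 members called higher in CMs and 2 in FBs, the latter a share near that of all genes (21.6%). Its median was 0.20 (0.04 without WT-CM6). *Nppa* shares 532 bases of exon with the antisense gene *Gm13054*, which differed by 8.62. The paper describes stranded libraries, but whether strand was used in counting is not given in the sources used here. *A530058N18Rik* lies over *Actc1* on the other strand but shares none of its exon bases. Both had the same level within 0.04 log2 units in each library, and the reason was not tested.

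Mitochondrial metabolism was higher in CMs across nearly all genes of the lists. In the nuclear respiratory chain 40 of 41 members were called higher in CMs, with a median of 4.70 and a range from 0.77 to 5.74. Cytochrome c oxidase subunits that are not in the list lay outside this range, the muscle forms *Cox6a2*, *Cox7a1* and *Cox8b* with 7.87, 8.14 and 8.45 and the general form *Cox6a1* with 0.45. In the TCA cycle it was 21 of 23 with a median of 4.09, and in fatty acid use 24 of 28 with a median of 3.73. *Atp5b*, the catalytic beta subunit of ATP synthase, was at 12.74, 12.29 and 12.90 in CMs and 8.14, 7.40 and 7.72 in FBs. *Cox4i1*, a subunit of cytochrome c oxidase, differed by 4.72 and *Cs*, citrate synthase, by 4.11. *Cpt1b*, the muscle form of the enzyme that admits fatty acids to mitochondria, was at 9.73, 9.66 and 10.12 in CMs and 2.98, 2.10 and 2.55 in FBs. *Fabp3*, the fatty acid carrier of heart muscle, differed by 8.16. The processed pseudogene *Fabp3-ps1* differed by 9.01, and reads of the parent gene may be counted there. *Lpl*, lipoprotein lipase, was at 12.70 and 11.91 in WT-CM1 and WT-CM2 but at 9.53 in WT-CM6, close to the 9.40 of WT-260-FB, and its difference of 2.70 was 3.63 without WT-CM6. *Ucp2*, an uncoupling protein of many cell types, was the member called higher in FBs, with a difference of -3.34. *Ckmt2*, the mitochondrial creatine kinase of striated muscle, had the largest difference of the genes named on the CM side, 10.05, with levels of 11.41, 11.56 and 11.91 in CMs and 4.65, -0.73 and 0.81 in FBs.

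**Figure D3:**
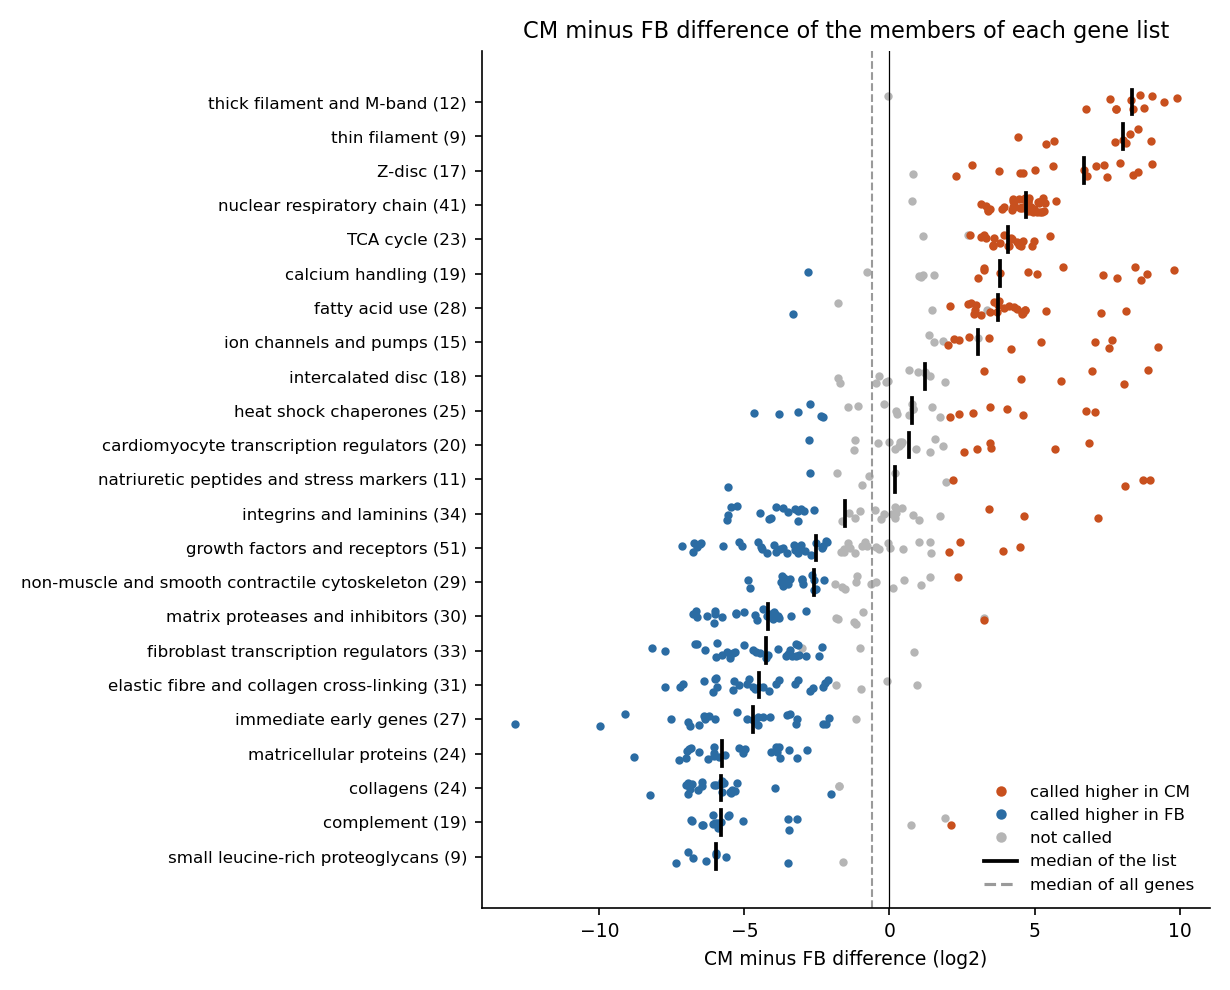
CM minus FB difference (log2) of each measured member of 23 gene lists (number of members in parentheses); orange and blue, called higher in CMs and in FBs; grey, not called; black bar, median of the list; dashed line, median of all genes (-0.59). The list medians run from 8.35 for the thick filament to -5.98 for the small leucine-rich proteoglycans.

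Many of these proteins have relatives encoded by other genes. Pairs were made of a gene prominent in striated muscle, called the striated form, and a related gene, called the general form. Some genes named striated, such as *Atp2a2*, are expressed in FBs too, so the names only mark the sides of a ratio. The ratio of both within a library does not depend on how the tables were scaled against each other. Of 40 such pairs 34 could be measured, with CPM divided by transcript length. In 31 of the 34 every CM ratio was above every FB ratio, and in 26 the striated form was the higher one in CMs and the other form in FBs by the group means. Of all single genes, 62.0% did not overlap at any fold, in either direction. The share among pairs of genes chosen in other ways was not computed. In single samples this did not always hold, as WT-260-FB had more of the striated form for *Eno3* over *Eno1* (0.98) and *Hspb6* over *Hspb1* (2.19), and WT-CM6 less of it for *Pdlim5* over *Pdlim7* (-0.63). The median shift of the ratio was 7.34 log2 units. Actin showed the largest shift, 12.63: the ratio of *Actc1* to beta-actin (*Actb*) was 8.48, 7.78 and 8.55 in CMs and -2.15, -5.56 and -5.36 in FBs. For desmin over vimentin (*Des* and *Vim*) it was 6.29, 5.01 and 6.33 in CMs and -4.19, -6.34 and -7.79 in FBs. *Ckm* over *Ckb*, the muscle and brain forms of cytosolic creatine kinase, shifted by 11.31, and *Eef1a2* over *Eef1a1*, elongation factors of translation, by 10.20. Both ADP/ATP carriers, *Slc25a4* and *Slc25a5*, were called higher in CMs, the striated form led in both cell types, and the ratio shifted by 2.34. *Ldhb* over *Ldha*, the lactate dehydrogenase forms of heart and of glycolytic tissue, was at 0.91, 0.76 and 0.38 in CMs and -2.47, -2.60 and -3.67 in FBs. The pairs whose ratios overlapped included *Hk2* over *Hk1* and *Mef2a* over *Mef2c*.

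**Figure D4:**
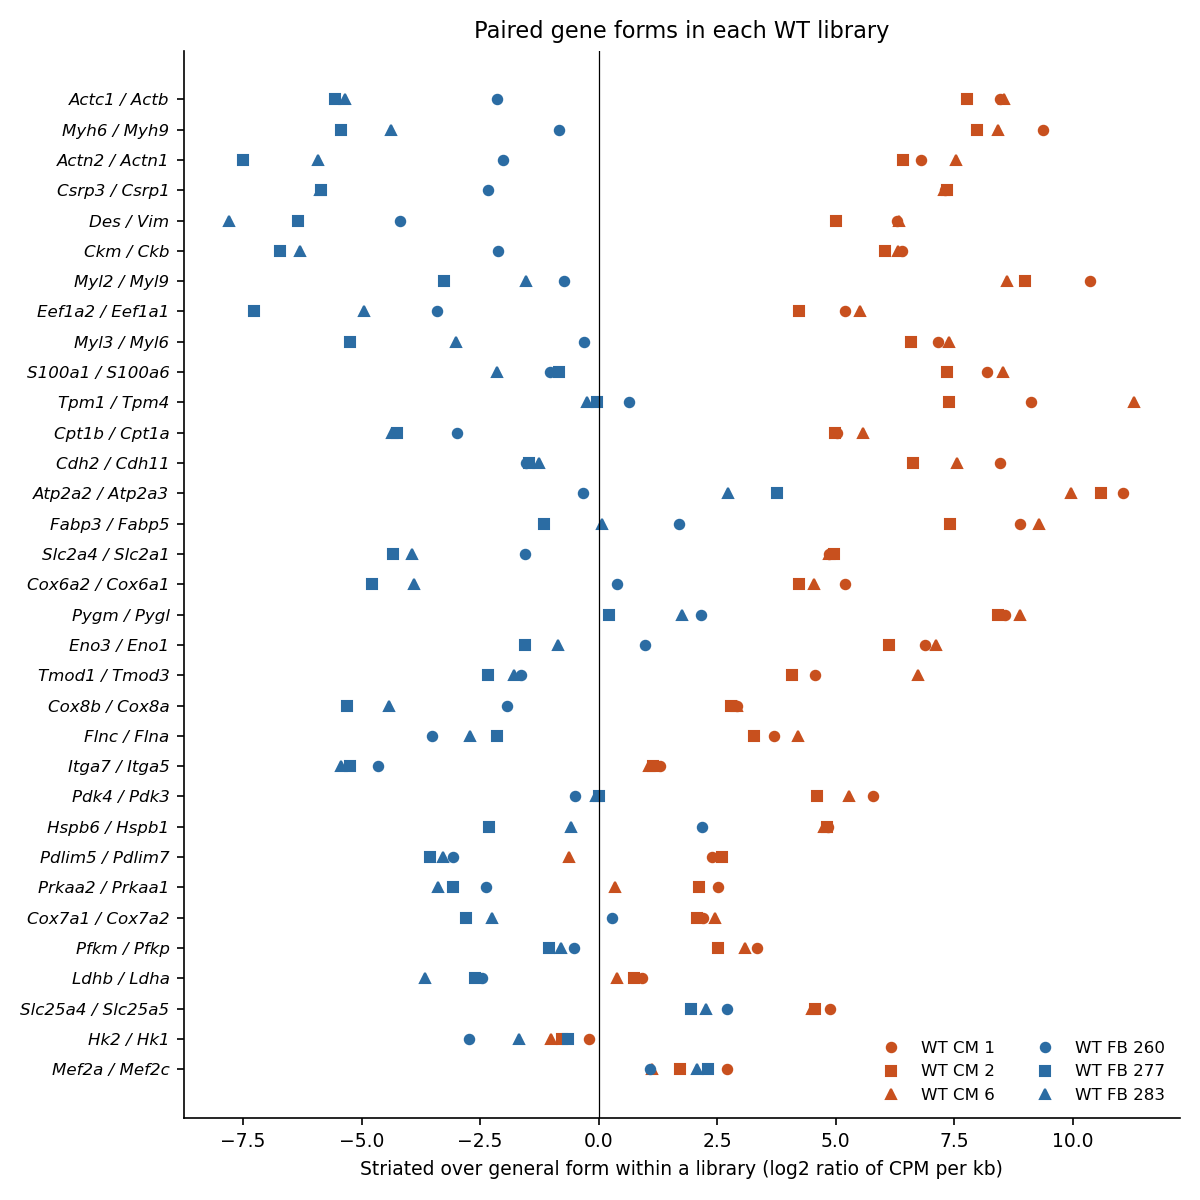
Log2 ratio of the striated over the general form (CPM per kb of transcript) within each WT library for 33 of the 34 gene pairs, ordered by the shift between CM samples (orange) and FB samples (blue). From the top, shifts run from 12.63 for *Actc1* over *Actb* to 0.02 for *Mef2a* over *Mef2c*, where the groups overlap.

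On the FB side the matrix stood out. Of the 24 collagen genes measured 22 were called higher in FBs, with a median difference of -5.80, and of 24 matricellular proteins it was 24, with a median of -5.77. *Col1a1* (chr11:94936224-94953042, plus strand), a chain of fibrillar collagen I, was at 13.27, 14.54 and 13.59 in FBs and 4.56, 5.82 and 6.30 in CMs, a difference of -8.24 or 302-fold. *Col1a2* and *Col3a1*, further fibrillar chains, differed by -7.0 and -6.60. The basement membrane collagens, which myocytes touch directly, differed least: *Col4a1* by -2.03, and *Col4a2* and *Col4a5*, the members that were not called, by -1.74 and -1.72. *Postn*, periostin, a matricellular protein of activated FBs, was at 10.20, 11.66 and 11.29 in FBs and 4.20, 6.48 and 1.56 in CMs. *Thbs1*, thrombospondin 1, which can release active TGF-beta, was at 8.63, 10.69 and 10.52 in FBs and 0.62, 2.08 and 0.73 in CMs. *Sparc*, a collagen-binding protein that CMs express at 8.88 ± 0.66, differed by only -3.78.

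Small leucine-rich proteoglycans, which space collagen fibrils, had 8 of 9 members called higher in FBs and a median of -5.98. *Dcn*, decorin, was at 12.76, 12.99 and 12.55 in FBs and 5.84, 6.66 and 3.77 in CMs. *Bgn*, biglycan, differed by -6.34 and *Prelp* by -6.77. Elastic fibre and collagen cross-linking genes followed with 27 of 31 and a median of -4.49. Elastin (*Eln*) was at 13.00, 14.41 and 12.93 in FBs and 5.14, 5.55 and 6.46 in CMs, whereas *Ltbp4*, a fibre protein that binds latent TGF-beta, differed by -4.83 with 8.01 ± 0.36 in CMs. Of 30 matrix proteases and inhibitors 23 were called higher in FBs and 1 in CMs, with a median of -4.19. *Mmp2*, gelatinase A, differed by -6.03, its inhibitor *Timp2* by -5.31 and the serine protease gene *Htra3* by -6.78. *Mmp15*, a membrane-bound metalloproteinase, was the member called higher in CMs, at 7.35, 7.43 and 7.85 against 5.90, 3.16 and 3.78 in FBs.

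The non-muscle cytoskeleton was less divided. Of 29 members 17 were called higher in FBs and 1 in CMs, with a median of -2.59. *Vim* differed by -4.86 and *Flna*, filamin A, by -3.66. *Myl12a*, a regulatory light chain of non-muscle myosin, was the member called higher in CMs, at 9.18, 9.51 and 9.83 against 7.13, 7.01 and 7.35 in FBs. *Acta2*, smooth muscle actin and a marker of myofibroblasts, was not higher in FBs: its levels were 7.84, 5.68 and 5.93 in FBs and 7.01, 7.34 and 8.32 in CMs, and the groups overlapped.

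Transcription regulators of FBs were called higher there in 30 of 33 cases, with a median of -4.27. *Sox9*, a regulator of matrix genes, was at 7.54, 7.30 and 7.83 in FBs and -0.94, 0.46 and -1.39 in CMs. *Osr1* differed by -7.75, with -2.45, -0.50 and -0.05 in CMs, and WT-CM1 was at the lowest value deposited for CMs. *Creb3l1*, which drives secretion of collagen, differed by -5.50. Regulators of the CM lineage did not divide in the same way: 6 of 20 were called higher in CMs and 1 in FBs, with a median of 0.67 (1.39 without WT-CM6). *Nkx2-5* was at 7.74, 7.60 and 7.90 in CMs and 3.59, -1.87 and 0.88 in FBs, and *Esrra*, a regulator of mitochondrial genes, differed by 3.48. *Srf* and *Mef2d*, factors of many cell types, differed by 0.91 and 0.32. *Tbx20* was called higher in FBs, but at 6.11, 6.12 and 2.76 in CMs and 7.39, 7.65 and 8.26 in FBs this rested on WT-CM6, without which the difference was -1.65.

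Of 51 measured growth factors and receptors 30 were called higher in FBs and 4 in CMs, with a median of -2.52. The share called higher in CMs was near that of all genes (8.67%). *Igfbp4* and *Fstl1*, secreted binding proteins, differed by -6.52 and -6.48. *Fgfr2* was high in both, at 10.80 ± 0.09 in CMs and 9.78 ± 0.13 in FBs. The members called higher in CMs were *Vegfb*, a ligand of endothelial VEGF receptors, at 9.23, 9.21 and 9.90 in CMs and 6.17, 5.25 and 5.18 in FBs, *Fgf13*, an intracellular partner of sodium channels, with 4.49, *Fgf1* with 2.45 and *Vegfa*, the main angiogenic ligand, with 2.05. Of 19 complement genes 16 were called higher in FBs and 1 in CMs. *C3*, the central component, was at 10.73, 12.11 and 11.66 in FBs and 5.24, 6.36 and 6.31 in CMs. *C1qb* differed by -6.09; this gene is also a macrophage marker, and the macrophage list had a median of -5.87, so the part of macrophage RNA in the complement result was not tested. Of 34 integrins and laminins 16 were called higher in FBs and 3 in CMs, the latter again near the share of all genes. *Lamc1* and *Nid1*, basement membrane proteins, differed by -4.10 and -5.25, and *Itga7*, the laminin receptor subunit of muscle, by 4.63.

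The largest difference of any named gene was that of an immediate early gene. These genes are switched on within minutes of a stimulus. *Fosb*, an AP-1 subunit, was at 12.68, 13.52 and 13.25 in FBs and 0.26, -0.19 and 0.63 in CMs, 7746-fold higher in FBs. *Fos* was at 11.58, 12.33 and 12.20 in FBs and 1.83, 2.25 and 2.12 in CMs, and *Egr1*, a zinc finger factor, at 12.74, 13.50 and 13.61 in FBs and 4.07, 4.56 and 3.83 in CMs. In both groups the 3 samples lay close together, with an SD of 0.47 or less for these 3 genes. *Zfp36*, a factor of mRNA decay, differed by -6.02 and *Junb* by -6.93. Of the 27 measured members 26 were called higher in FBs, with a median of -4.72 (-5.08 without WT-260-FB), and *Ier5*, with -1.17, was the exception. *Nfkbiz*, a nuclear regulator of inflammatory genes that the list does not hold, differed by -9.22. The summed level of the list was 40060, 63910 and 61200 CPM in FBs and 1027, 1043 and 1170 CPM in CMs. FBs and CMs were isolated with different enzymes and steps, and the part of isolation in this difference cannot be told apart from that of cell type.

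Of 25 heat shock chaperones 8 were called higher in CMs and 6 in FBs, the latter a share near that of all genes (21.6%), and the median was 0.76 (1.33 without WT-CM6). Among small heat shock proteins, *Hspb7* was at 12.80, 12.84 and 13.54 in CMs against 7.80, 5.14 and 4.96 in FBs, *Hspb6* and *Hspb8* differed by 6.76 and 4.05, and *Hspb1* was not called at 1.72. The inducible genes *Hspa1a* and *Hspa1b* were called higher in FBs with -3.80 and -4.66, and these near-identical copies share reads. *Hsp90ab1* had 10.50 ± 0.06 in CMs and 9.74 ± 0.21 in FBs and was not called.

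Genes held by 1 table are outside the comparison, since the authors' filter had removed them from the other table. There were 690 such genes in the CM table, 138 of them averaging 10 CPM or more, and 1212 in the FB table, 56 of them at that level. Among the highest in the CM table, as deposited, were *Art1* with 7.05, *Alpk2*, an alpha kinase gene, with 6.78, *Rpl3l*, the striated muscle form of a ribosomal protein, with 6.54 and *Itgb1bp2* with 6.53 log2 CPM. Those in the FB table were the chemokine genes *Cxcl1* with 6.93 and *Cxcl2* with 5.79, the immediate early gene *Egr2* with 6.81, *Ptgs2*, the inducible cyclooxygenase, with 6.40 and *Tnfaip6* with 6.19.

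The *Gadlor*-KO samples of the same tables give the contrast in samples that the WT comparison did not use. Of 12212 genes 284 were called there, 176 (1.44%) higher in *Gadlor*-KO CMs and the rest (0.884%) higher in *Gadlor*-KO FBs. Of the genes called in WT samples, 1036 of 1059 on the CM side and 1784 of 2643 on the FB side had the same sign in *Gadlor*-KO samples. Of these, 141 and 99 were called again. The median difference of all genes was 0.20 in *Gadlor*-KO samples and -0.59 in WT samples. Counts of signs on the CM and FB sides are to be read against that shift. Among the 23 pathway lists the median difference was nearer to 0 in all but that of natriuretic peptides and stress markers (0.33), and the epicardial and mesothelial markers went from a median of -3.17 in WT to 5.01. The median was 2.76 for the thick filament, 1.70 for the respiratory chain, -1.06 for collagens and -1.21 for matricellular proteins. *Myh6* was at 9.62, 9.06 and 12.07 in *Gadlor*-KO CMs and 6.45, 6.91 and 6.88 in *Gadlor*-KO FBs, and *Col1a1* at 10.71, 10.98 and 10.78 in CMs and 12.29, 13.24 and 13.46 in FBs. The 12 CM markers summed to 4991, 2986 and 28040 CPM in the *Gadlor*-KO CM samples and the 12 FB markers to 10550, 16940 and 11380 CPM. These CM samples thus had lower sums of CM markers and higher sums of FB markers than the WT ones. Markers of other cells were higher in them too, endothelial ones at 4970, 11140 and 8120 CPM, macrophage ones at 5908, 2050 and 2101 CPM and those of red blood cells at 76540, 236 and 427.7 CPM. A different mixture of cells and a changed expression within CMs cannot be told apart by these sums. The part of either in the smaller differences was not tested. Immediate early genes kept most of their distance, with 20 of 27 called higher in FBs and a median of -2.81, and *Fosb* was at 5.97, 2.35 and 3.65 in *Gadlor*-KO CMs and 14.00, 13.18 and 13.11 in *Gadlor*-KO FBs. Complement did not, with a median of -0.05, and *C3* was at 13.26, 9.46 and 9.76 in CMs and 10.44, 8.71 and 8.62 in FBs.

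**Figure D5:**
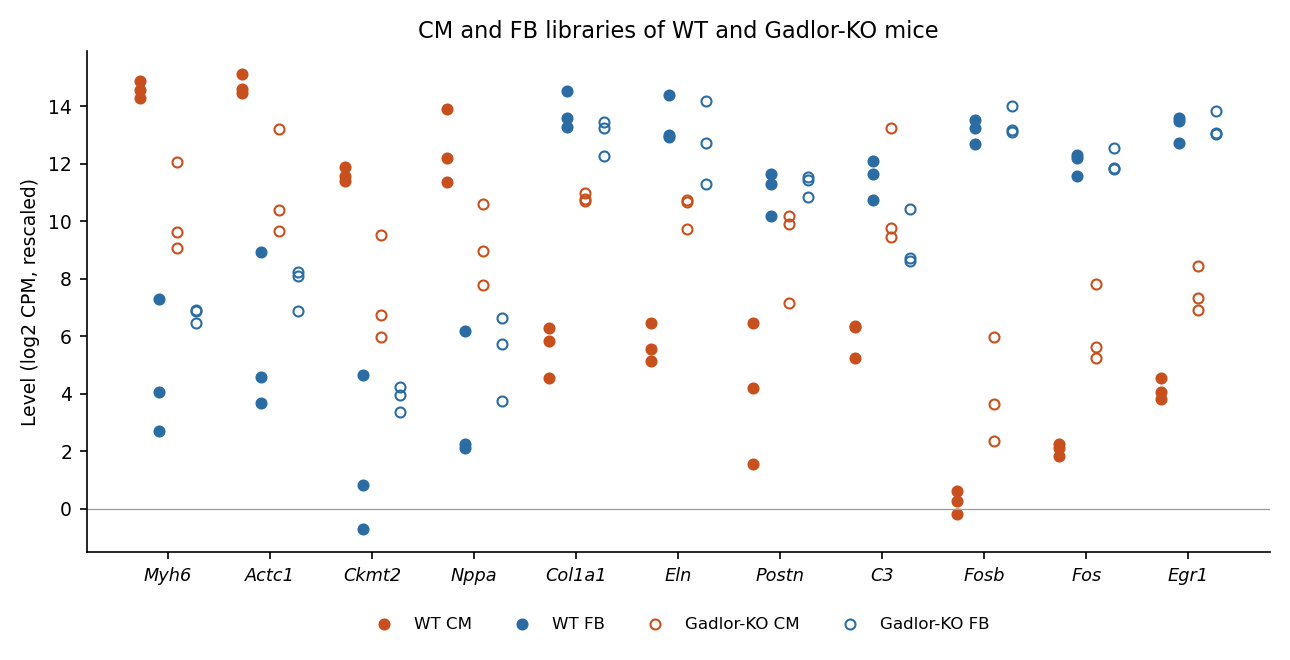
Level (log2 CPM, rescaled) of 11 genes in each of the 3 CM samples (orange) and 3 FB samples (blue) of WT (filled) and *Gadlor*-KO mice (open). CM and FB points of WT mice do not overlap for any of the 11 genes, while the open points lie closer together, and for *C3* the *Gadlor*-KO groups overlap.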

How the data were processed

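Per the paper's methods, the authors trimmed reads with FastqCleaner, aligned them to mm10 with bowtie2, annotated them with biomaRt and tested genotypes with edgeR. Bowtie2, DESeq2 and mm10 stand in the submitters' processing notes. The paper describes the libraries as strand-specific and read from a single end. The counting tool, its strand setting, the annotation release, versions and low-expression filter are not given in the sources used here. The deposited values are log2 CPM per transcript, in 25362 rows for CMs and 26506 for FBs, whose lowest values are set by a prior count. The authors' fold changes, likelihood ratios, p-values and FDR between genotypes were not used, nor was the table of endothelial cells.

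The tables were joined on transcript ID (24083 transcripts, 250 without a symbol left out). Per symbol the transcript with the highest mean over the 6 WT samples was kept, mitochondrially encoded genes were removed, and each sample was scaled to a total of 1000000. Since this is a table of transcripts and not genes, length refers to the kept transcript, in GENCODE M21, which annotates the same build. The steps were tested on simulated data, and used python 3.11.15, pandas 2.3.3, numpy 2.4.6 and matplotlib 3.10.9.

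The members, gene lists and tests were chosen with earlier results of these data known. Named genes are *Myh6* and *Col1a1*, the 10 largest called differences in each direction (at least 50 CPM, without predicted genes and genes of no known role), from each list its most highly expressed members (at most 5) and those called against its side (at most 3), the 5 most highly expressed genes of each cell type, the gene pairs and the highest genes held by 1 table. Members given as exceptions to a count, and *Ryr2*, *Acta2*, *Col4a1*, *Cx3cr1*, *Vegfa*, *Gm13054*, *Myh7* and the *Hspa1* genes, were chosen after their values were seen. Spread is between samples that the labels do not tie to single animals. Alternatives were other scalings, filters, pseudocounts, thresholds, transcript choices and samples. Applied to the *Gadlor*-KO samples, the call rule gave 176 genes higher in CMs and 108 higher in FBs. Values of a few genes are not reported here.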

Additional observations from a re-analysis of the deposited data

Results flagged for a closer look

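Some list members were called in opposite directions in WT and *Gadlor*-KO samples, all FB values lying above all CM values in WT samples and below them in *Gadlor*-KO samples. This difference between the genotypes was not tested. Of 19 such genes in all, 7 belong to the lists, 6 of them to the 7 epicardial and mesothelial markers. *Upk3b*, a uroplakin of mesothelial cells, had a CM minus FB difference of -3.51 in WT and 5.27 in *Gadlor*-KO samples. In *Gadlor*-KO CMs its levels were 11.15, 5.99 and 6.57, so that 1 sample was far above the others. The difference was -4.24 in WT and 5.37 in *Gadlor*-KO samples for *Lrrn4*, -3.17 and 6.05 for *Muc16*, -3.12 and 5.01 for *Upk1b*, -2.96 and 4.67 for *Krt19*, and -2.19 and 4.81 for *Msln*. The complement gene *C2* had -3.50 and 2.47. The summed level of the epicardial and mesothelial list was 5751, 242.2 and 253.2 CPM in *Gadlor*-KO CM 1, 2 and 3 and between 38.7 and 103 CPM in *Gadlor*-KO FBs, and its part in the result of *C2* was not tested.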

How the results depend on the processing

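The lists kept their sides in all settings within WT samples under which their medians were computed, which leaves out the filters and thresholds. Leaving out each sample in turn gave 996 to 1304 genes called higher in CMs, 2165 to 3204 higher in FBs and 3382 to 4266 in all. It gave 160 to 169 of the CM-side list members (161 with all samples), 193 to 200 of the FB-side members (197), 31 to 32 gene pairs with CM ratios above FB ratios and 22 lists with their median on their own side. With a pseudocount of 5 CPM 1580 genes were higher in FBs and 2371 were called in all, against 2643 and 3702. A 2-fold threshold gave 1940, 4327 and 6267 genes (CMs, FBs, all) and an 8-fold threshold 567, 1558 and 2125. Median centring gave 1545 and 1929 and moved the median of all genes from -0.59 to -0.06, and the median of growth factors and receptors, -2.52, was -1.99 there and -1.96 with a pseudocount of 5 CPM, within the 4-fold threshold. Leaving out both WT-CM6 and WT-260-FB, chosen after seeing the data, gave 1490 and 2099.

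Among the genes named by the rules above, no call changed direction in WT samples under any scaling, pseudocount, transcript choice or left-out sample. Calls of *Fxyd1*, *Pdk3*, *Myl9*, *Cd59a*, *Tmod3*, *Pdlim5*, *Pdlim7*, *Ckb*, *Myh9*, *Zeb1*, *Itpr1* and *Tbx20* were lost under 1 or more of them. Calls of single named genes were not followed under other filters and thresholds. Genes chosen outside these rules were not followed, among them *Col4a1* and *Vegfa*, whose differences lay close to the 4-fold threshold. With *Gadlor*-KO samples 284 genes were called, 176 of them higher in CMs, with 60 CM-side and 17 FB-side list members. Directions there were the opposite of those in WT samples among others for the ratio of *Pygm* over *Pygl* (-0.16) and for *Itpr1* (0.071), *Npr1* (0.33), *Ucp2* (0.43), *Sparc* (0.16), *Fn1* (0.36), *Flna* (0.25), *Igfbp5* (0.78), *C3* (1.57), *Hk2* (-1.50), *Myh9* (1.06), *Myl9* (0.23), *Tpm4* (0.83), *Tmod3* (0.30), *Cdh11* (0.58), *Eef1a1* (0.18) and *Pdk3* (0.58). The cause was not tested. Genes under a few CPM are limited by depth, which was lowest in WT-260-FB and the CMs. No paired analysis was possible because the results come from no test and the compared groups share no replicate numbers.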
